A study of Mus musculus with 12 samples.

Results

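The 10 genes described here make up the MHC class I antigen presentation machinery: the heavy chains H2-K1, H2-D1, H2-T23, H2-Q4, H2-Q7 and H2-Q10, their light chain B2m, the peptide transporter subunits Tap1 and Tap2, and the loading factor Tapbp. They were taken by gene symbol from a table of 55421 genes, and all 10 of 10 passed the low-count filter into the 15006 genes tested. The study sequenced rRNA-depleted total RNA of liver from wild-type (WT) mice on day 21 after E0771 cells, of a breast tumour line, had been injected into a mammary fat pad. There were 3 groups of 4 libraries, kept at 6 °C (numbered 1 to 4), at 22 °C (5 to 8) and at 29 °C (9 to 12) after 1 week of acclimatisation. Genotype, tumour and day were the same in all 12 libraries, so none is from a mouse without a tumour. Balb/C and C57Bl6/J are both named as hosts in the growth protocol, with no strain given for a library. Nothing in the labels says that libraries of a group are from different animals, and p-values here cover the spread among libraries, which may be technical.

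A class I molecule is a heavy chain paired with beta-2 microglobulin, the product of B2m, and it holds a short peptide at the cell surface for inspection by CD8 T cells and natural killer cells. Peptides cut by the proteasome in the cytosol are pumped into the endoplasmic reticulum by the TAP1-TAP2 transporter, and tapasin, the product of Tapbp, holds an empty heavy chain next to that transporter until a peptide is bound. H2-K1 and H2-D1 encode the classical, highly variable heavy chains. H2-T23 (Qa-1), H2-Q4 (Qb-1) and H2-Q7 (Qa-2) encode non-classical chains with narrower roles, and H2-Q10 encodes a secreted class I chain made mainly by the liver. The genes are raised by interferon and by NF-kB signalling through short promoter elements, with NLRC5 as the class I transactivator.

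Promoters of 4 heavy chain genes are shown because they hold close or exact matches to that pair of elements, while their levels ran in both directions across the libraries. The windows are RefSeq promoter sequence on GRCm38.p6, printed 5′ to 3′ on the strand of the gene, with the kB element and the interferon-stimulated response element in capitals. The letters of both, GGGGATTCCCC and AGTTTCACTTCT, were read from the H2-K1 promoter, and the best match to them on the strand of the gene was taken in the others.
H2-K1: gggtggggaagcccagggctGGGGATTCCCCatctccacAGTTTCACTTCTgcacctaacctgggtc
H2-Q4: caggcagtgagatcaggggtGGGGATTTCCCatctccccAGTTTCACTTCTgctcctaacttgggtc
H2-Q7: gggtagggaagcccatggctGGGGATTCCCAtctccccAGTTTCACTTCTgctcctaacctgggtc
H2-Q10: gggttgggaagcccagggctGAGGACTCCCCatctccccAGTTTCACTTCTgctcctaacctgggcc
These lie at chr17:34000412-34000478 on the minus strand for H2-K1, and on the plus strand at chr17:35379423-35379489 for H2-Q4, chr17:35439002-35439067 for H2-Q7 and chr17:35469893-35469959 for H2-Q10. Counted from 1 at the 5′ end of GGGGATTCCCC, H2-Q4 carries C8T and H2-Q10 carries G2A and T6C. Compared without gaps, H2-Q7 reads C11A, but it has 7 bases between the elements where the other 3 have 8, so its letters fit a missing base as well as a substitution. H2-Q4, H2-Q7 and H2-Q10 hold the second element exactly. H2-D1 holds both elements exactly, with 8 bases between them as in H2-K1. Its window is not printed because it overlaps an annotated untranslated region of H2-D1.

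The exact letters read from H2-K1 are rare in the reference. The match of H2-K1 to them was set in advance, and near matches, such as H2-Q4 for the kB letters, were not counted. How common such elements are with other letters was not tested. On either strand of the 250 bases before each gene start, the kB letters occur in 6 of 27025 promoters (0.0222%) and the AGTTTCACTTCT letters in 8 (0.0296%). Among the 6 are H2-K1, H2-D1 and H2-Q6, a neighbouring heavy chain gene. Among the 8 are H2-K1, H2-D1, H2-Q4, H2-Q6, H2-Q7 and H2-Q10. H2-T23, B2m, Tap1 and Tapbp have no exact match to either element in this window, and the promoter table does not list Tap2. A match is a description of letters in the reference and not a binding site shown in these livers, and the libraries can come from a strain with other letters there.

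4 libraries stood apart before any comparison of temperature. H2-Ea-ps is the reference name of the class II E alpha gene, which carries a promoter deletion in C57BL/6 mice and is transcribed in some other strains. It had 227 counts in library 1 (6 °C), 248 and 191 in libraries 7 and 8 (22 °C) and 134 in library 9 (29 °C), and 0 counts in each of the other 8 libraries. These 4 libraries are not groups of the study, so values in them are set beside the other 8 as a description and without a test. Total counts ran from 7615585 to 19001126. A level of 3 counts, taken here as the floor for a count of 0, corresponds to 0.158 to 0.394 CPM, the count scaled by the library total. All 8 hepatocyte markers were present in every library, as the tissue label has it. Their sum was 83168 to 102533 CPM in the 4 libraries and 97329.8 to 201471 CPM in the 8, where only library 2 lay within the range of the 4, and 1 of the 8 genes was lower in the 4 without overlap. The summed level of 9 neutrophil markers was higher in the 4 libraries (659 to 1881 CPM) than in the 8 (28.7 to 590 CPM), with 2 of the 9 genes not overlapping. The sums for 12 Kupffer cell and macrophage markers (574 to 832 against 586 to 1545 CPM), 14 T and NK cell markers (8.70 to 18.2 against 9.31 to 21.1 CPM) and 7 B cell markers (24.5 to 41.1 against 30.3 to 135 CPM) overlapped. Among the genes tested of these lists, 2 of 12, 3 of 8 and 1 of 6, in that order, were lower in the 4 without overlap. The sum of 7 stellate cell markers also overlapped (659 to 907 against 439.7 to 675 CPM), with 2 of the 7 genes higher in the 4 without overlap. Of all genes tested, 4.77% were lower and 4.61% higher in the 4 without overlap. Summed intestinal markers reached 611 CPM in library 11 (29 °C) and at most 23.2 CPM elsewhere. In bulk RNA, fewer cells of a type and less RNA per cell cannot be told apart, and the part of these cell markers in the results below was not tested.

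Levels of the 10 genes spanned a wide range. CPM here are on TMM-scaled library sizes. Per kilobase of merged annotated exons, B2m was highest with a median of 985 CPM per kb over 12 libraries (660 to 3010). H2-Q10 followed with a median of 337 CPM per kb (126 to 460), then H2-K1 with 281 (58.3 to 368) and H2-D1 with 184 (126 to 235). The ranges of these 3 heavy chains overlap, so their order is not fixed across libraries. Tapbp (51.2 CPM per kb, 39.6 to 67.1) and H2-T23 (39.8 CPM per kb, 31.7 to 72.6) lay lower and overlapped each other. H2-Q4 (12.0 CPM per kb), Tap2 (11.1 CPM per kb), H2-Q7 (6.26 CPM per kb) and Tap1 (6.09 CPM per kb) were lowest and overlapped. H2-Q10, the secreted liver chain, made up 39.4% to 55.5% of the summed CPM of the 6 heavy chains.

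**Figure D1:**
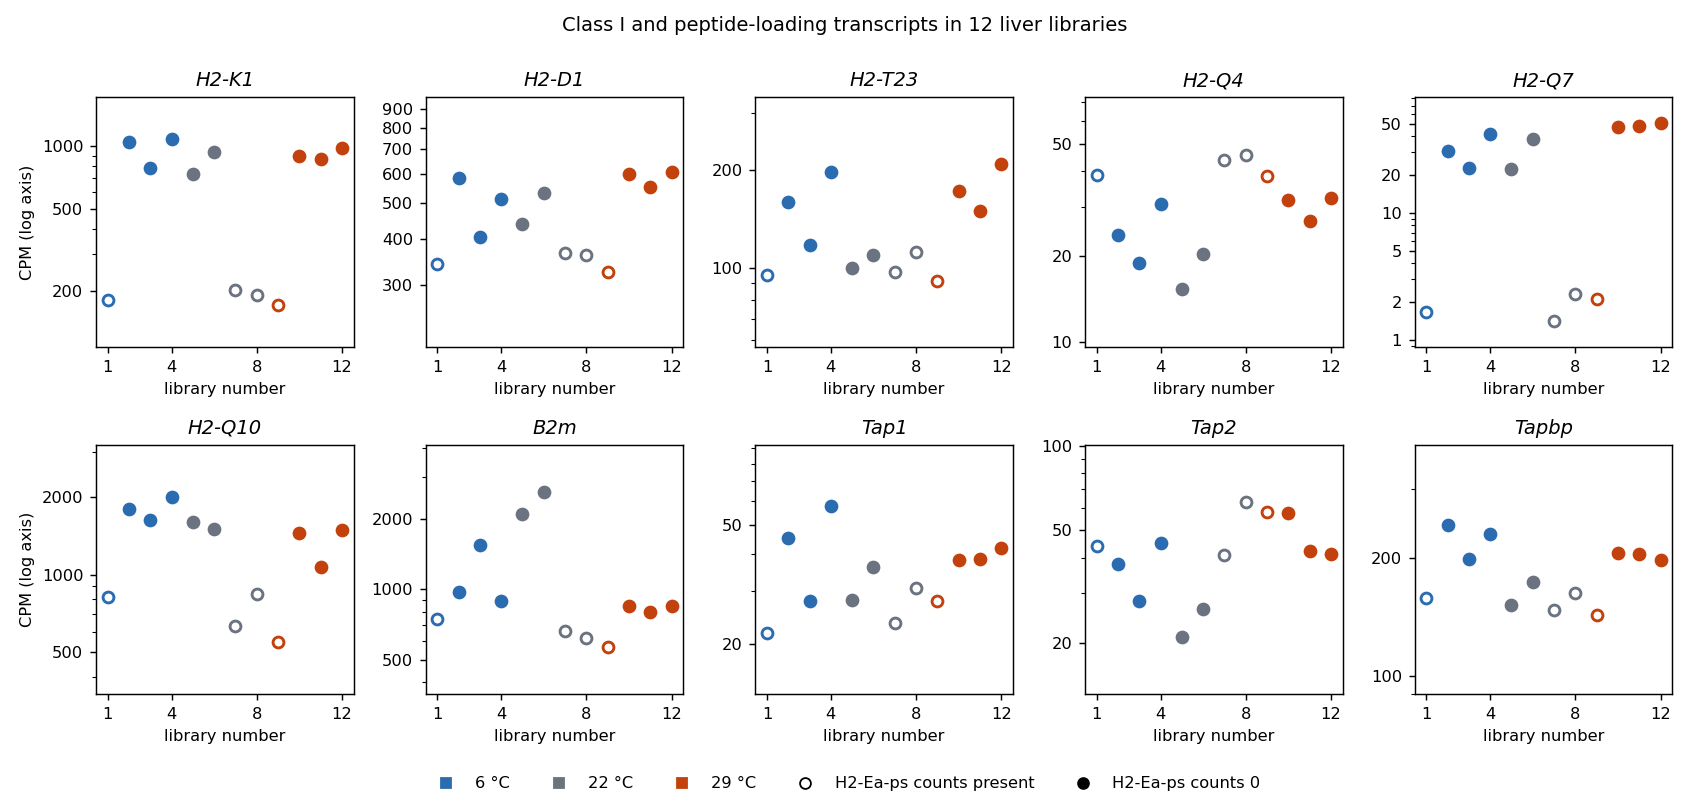
Level of each of the 10 genes in every library, in CPM on TMM-scaled library sizes on log axes, against library number, with color for housing temperature and open marks for the 4 libraries with H2-Ea-ps counts. H2-K1, H2-D1, H2-Q7, H2-Q10 and B2m lie lower in the 4 libraries and H2-Q4 lies higher, with no overlap, at each temperature.

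Of the 10 genes, 5 were lower and 1 was higher in all 4 libraries with H2-Ea-ps counts than in all 8 without. Of all 15006 genes tested, 9.38% did not overlap in this way (4.77% lower and 4.61% higher). The 5 lower genes were H2-K1, H2-D1, H2-Q7, H2-Q10 and B2m, and the higher gene was H2-Q4. The same 6 genes did not overlap without library 11, where the share of all genes was 10.9%. With CPM of the plain total count, H2-D1 overlapped and the number was 5. The median difference of the 10 genes, from a fit that also held temperature, was -0.56 on the log2 scale (4 libraries minus 8), beside 0.03 over all genes tested.

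H2-K1, a classical heavy chain (chr17:33996017-34000347, minus strand), had the largest difference in CPM among the heavy chains after H2-Q10. It stood at 181 CPM in library 1, 201 and 191 CPM in libraries 7 and 8 and 171 CPM in library 9. The other libraries held 1045, 786 and 1080.1 CPM at 6 °C, 733 and 938 CPM at 22 °C and 896, 868 and 977 CPM at 29 °C. The 4 low libraries lay within 171 to 201 CPM whatever the temperature, and no library fell between 201 and 733 CPM. The median was 4.93 times higher in the 8 libraries, and the fitted difference was -2.29 (SE 0.14, log2), which ranks 352 by size among the 15006 genes.

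H2-D1, the other classical heavy chain (chr17:35262730-35267499, plus strand), differed far less. It stood at 341 CPM in library 1, 366 and 361 CPM in libraries 7 and 8 and 326 CPM in library 9. The other libraries held 585, 404 and 512 CPM at 6 °C, 438 and 533 CPM at 22 °C and 600.0, 553 and 605 CPM at 29 °C. The gap between the 2 sets was narrow, from 366 CPM in library 7 to 404 CPM in library 3, and the fitted difference was -0.58 (SE 0.13, log2).

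H2-Q7, which encodes the Qa-2 antigen (chr17:35439155-35443773, plus strand), was close to absent in the same 4 libraries. It had 23 counts (1.65 CPM) in library 1, 22 and 31 counts (1.40 and 2.31 CPM) in libraries 7 and 8 and 27 counts (2.08 CPM) in library 9. The other libraries held 30.9, 22.5 and 42.2 CPM at 6 °C, 22.1 and 38.5 CPM at 22 °C and 47.2, 48.0 and 51.0 CPM at 29 °C. The lowest of the 8 was 22.1 CPM, far above the highest of the 4. The ratio of the medians was 21.6, and the fitted difference of -4.24 (SE 0.25, log2) was the largest of the 10 genes and ranked 119 by size among all genes tested.

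H2-Q10, the secreted chain (chr17:35470089-35474563, plus strand), followed the same order at a much higher level. It stood at 819 CPM in library 1, 629 and 839 CPM in libraries 7 and 8 and 547 CPM in library 9. The other libraries held 1791, 1636 and 1999 CPM at 6 °C, 1598 and 1501 CPM at 22 °C and 1444, 1071 and 1487 CPM at 29 °C. Library 11 was the lowest of the 8, and the 4 remained below it. The median was 2.14 times higher in the 8 libraries, with a fitted difference of -1.16 (SE 0.14, log2).

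H2-Q4 (chr17:35379617-35385290, plus strand) ran the other way. It stood at 38.8 CPM in library 1, 43.8 and 45.7 CPM in libraries 7 and 8 and 38.4 CPM in library 9. The other libraries held 23.9, 18.9 and 30.6 CPM at 6 °C, 15.3 and 20.4 CPM at 22 °C and 31.7, 26.6 and 32.1 CPM at 29 °C. The median was 1.63 times higher in the 4 libraries, with a fitted difference of 0.84 (SE 0.17, log2). The annotated gene Gm11131 lies antisense to H2-Q4 and had 12 to 44 counts per library, beside 166 to 687 for H2-Q4. Gm11131 was lower in the 4 libraries without overlap (fitted log2 difference -0.96), but overlapped with CPM of the plain total count. The use of strand in the counting is not given in the sources used here, so reads of the pair cannot be told apart.

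H2-T23, the Qa-1 chain that natural killer cells read through CD94/NKG2A (chr17:36029773-36032855, minus strand), overlapped. Its 4 libraries ran from 91.7 to 112 CPM with a median of 96.3 CPM, and the 8 from 100.3 to 209.6 CPM with a median of 154 CPM. The fitted difference was -0.50 (SE 0.18, log2).

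B2m is the only one of the 10 genes outside chromosome 17 (chr2:122147686-122153083, plus strand). It stood at 743 CPM in library 1, 661 and 619 CPM in libraries 7 and 8 and 567 CPM in library 9. The other libraries held 969.7, 1540.3 and 888 CPM at 6 °C, 2093 and 2588 CPM at 22 °C and 848, 800.1 and 846 CPM at 29 °C. The sets did not overlap, but the gap from 743 to 800.1 CPM was small beside the spread within the 8, where libraries 5 and 6 at 22 °C and library 3 at 6 °C stood above the rest. The fitted difference was -1.06 (SE 0.23, log2).

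The loading genes overlapped. Tap1 (chr17:34187553-34197225, plus strand) ran from 21.6 to 30.6 CPM in the 4 libraries and from 27.7 to 57.8 CPM in the 8. Its partner Tap2 (chr17:34203527-34216321, plus strand) ran from 41.0 to 63.1 CPM in the 4 and from 20.9 to 57.5 CPM in the 8, so the medians of the transporter subunits lay in opposite orders. Tapbp (chr17:33915899-33929292, plus strand) ran from 144 to 163 CPM in the 4 and from 152 to 243 CPM in the 8. The fitted differences were -0.54 (SE 0.19) for Tap1, 0.63 (SE 0.20) for Tap2 and -0.33 (SE 0.12) for Tapbp on the log2 scale.

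Ratios of counts within a library carry no scaling between libraries. H2-K1 had 0.532, 0.548, 0.528 and 0.526 counts for each H2-D1 count in libraries 1, 7, 8 and 9. In the other 8 libraries the ratio lay between 1.49 and 2.11. The 4 ratios were close to each other although these libraries came from all 3 temperatures. H2-Q4 had 18.4 to 31.2 counts for each H2-Q7 count in the 4 libraries and 0.532 to 0.841 in the 8. Tap1 had 0.477 to 0.574 counts for each Tap2 count in the 4 and 0.663 to 1.38 in the 8. Each of these ratios separated the 4 libraries from the 8 without overlap, also for Tap1 and Tap2, whose levels alone overlapped. For H2-Q4 over H2-Q7 this was set in advance, since H2-Q4 was higher and H2-Q7 lower in the 4 without overlap. How many other pairs of genes separate in this way was not counted. The summed level of the 6 heavy chains was 1176 to 1551 CPM in the 4 libraries and 2716 to 3862 CPM in the 8, and the share of that sum from H2-K1 was 12.3% to 15.0% against 25.2% to 32.0%.

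**Figure D2:**
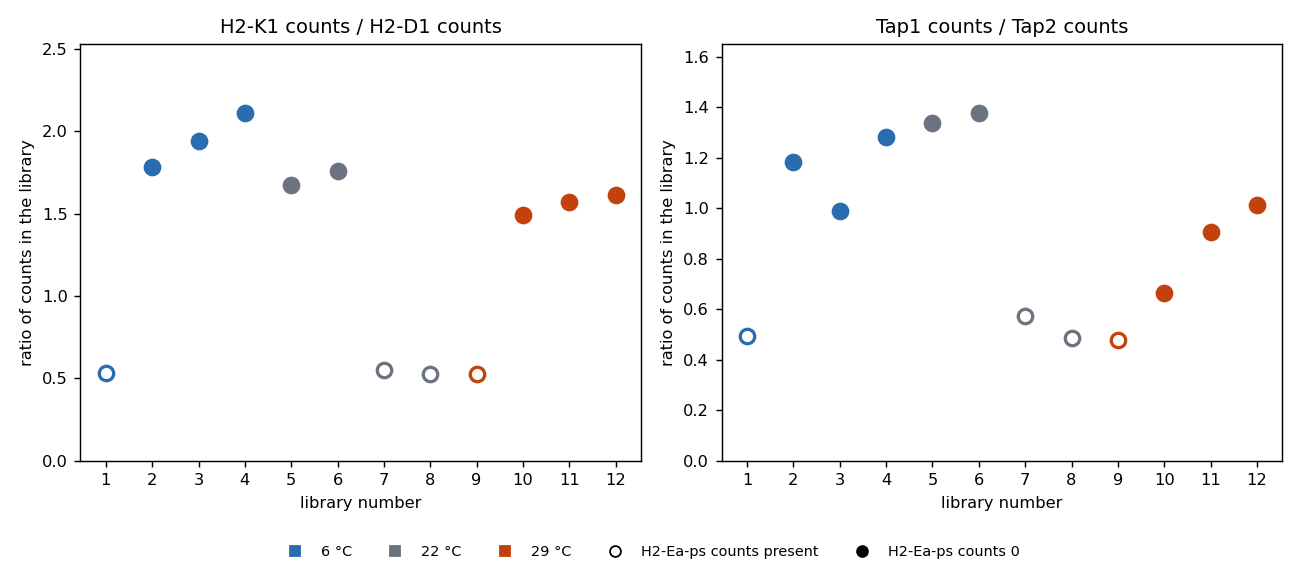
Ratio of counts within each library for H2-K1 over H2-D1 (left) and Tap1 over Tap2 (right) on linear axes from 0, against library number, with color for housing temperature and open marks for the 4 libraries with H2-Ea-ps counts. H2-K1 over H2-D1 lies at 0.526 to 0.548 in the 4 libraries and at 1.49 to 2.11 in the 8.

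Within the 8 libraries without H2-Ea-ps counts, the ratio of H2-K1 to H2-D1 was 1.79, 1.94 and 2.11 at 6 °C, 1.68 and 1.76 at 22 °C and 1.49, 1.57 and 1.62 at 29 °C. Every 6 °C library lay above every 22 °C library, and each of those above every 29 °C library. This order was noticed after the values were seen and was not tested. In the 4 libraries with H2-Ea-ps counts the ratio was 0.532 at 6 °C, 0.548 and 0.528 at 22 °C and 0.526 at 29 °C, with no such order.

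The genes on chromosome 17 lie in the major histocompatibility complex. From Tapbp to H2-T23 (chr17:33915899-36032855, 2.12 Mb on GRCm38), 18 of 104 genes tested did not overlap between the 4 and the 8 libraries (17.3%), 6 of them higher and 12 lower in the 4. Without the 9 genes described here, the count was 13 of 95 (13.7%). Both counts include H2-Ea-ps, whose counts define the 4 libraries, so its lack of overlap was set in advance. The rest of chromosome 17 had 64 of 615 (10.4%) and the other chromosomes 1325 of 14271 (9.28%). The span ends at H2-T23 because that gene is the last of the 10, and the next 6 genes tested beyond it (H2-T22, H2-Bl, H2-T-ps, H2-T10, Gm10499 and Gm8909), counted with the rest of the chromosome, all failed to overlap, 5 higher and 1 lower in the 4. They were noticed after their values were seen. The difference between the 4 libraries and the 8 was therefore not limited to this region, and most genes that did not overlap lay on other chromosomes.

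**Figure D3:**
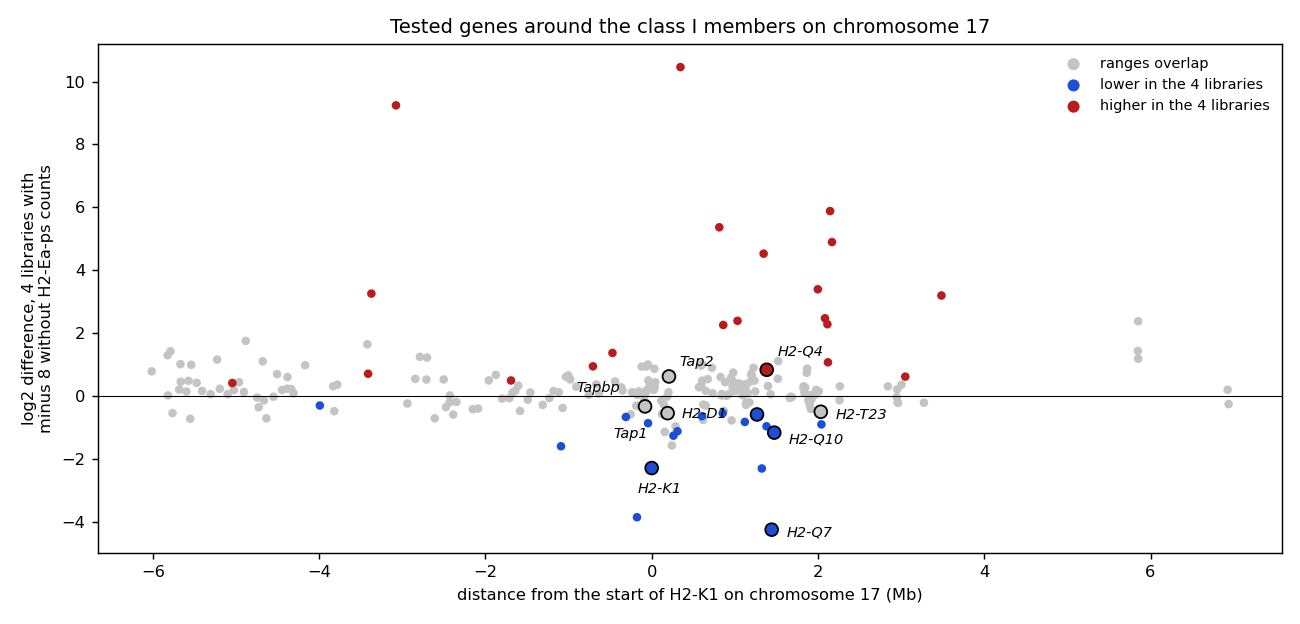
Difference between the 4 libraries with and the 8 without H2-Ea-ps counts, as fitted log2 difference of tested genes, against distance from the start of H2-K1 on chromosome 17 in Mb. The 9 genes described here are outlined and named, and color marks genes that did not overlap, higher (red) or lower (blue) in the 4. H2-Q7 (-4.24) and H2-K1 (-2.29) lie lowest of the 9 and H2-Q4 (0.84) and Tap2 (0.63) lie above 0, among genes of both directions.

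Sequence shared with other genes, of class I or not, bears on what a count can mean. Read length is not given in the sources used here, so windows of 50 and 100 bases of the annotated coding transcripts were compared with those of all other genes. At 50 bases, 39.2% of H2-Q4, 34.9% of H2-Q7 and 29.8% of H2-T23 windows occur in another gene, against 13.9% for H2-D1, 7.73% for H2-Q10 and 6.87% for H2-K1. At 100 bases, the shares fell to 13.9%, 17.2%, 7.28%, 4.09%, 1.93% and 0.0% in the same order. B2m shared no window at either length. The loading genes shared windows too, at 50 and 100 bases: Tapbp 22.4% and 12.7%, Tap2 12.1% and 5.07%, and Tap1 6.27% and 3.71%. Tapbp shares most with Gm19412 (18.9% and 12.6%). Windows were compared on either strand, and H2-Q4 shares most with Gm11131, which lies antisense to it (16.1% at 50 bases and 11.1% at 100). H2-Q7 shares most with H2-Q5 (7.87% at 100 bases) and H2-Q6 (9.34%), so counts of these 3 genes are uncertain where the counting could split them. H2-Q6 itself overlapped, with 25.8 to 34.3 CPM in the 4 libraries and 18.99 to 34.9 CPM in the 8. GRCm38 is the C57BL/6J sequence, and reads from another haplotype may align to it less completely. Such reads, strain and RNA level cannot be told apart in a table of counts, and the part of read mapping in these differences was not tested.

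Housing temperature was the comparison the study was built on. Of the 10 genes, 0 were called at an adjusted p under 0.05 (edgeR quasi-likelihood test, Benjamini-Hochberg over 15006 genes, two-sided) for 29 °C against 6 °C, where 2.53% of all genes tested were called. For 29 °C against 22 °C, 0 of 10 were called beside 0.0% of all genes, and 0 of 10 beside 0.0333% for 6 °C against 22 °C. At an unadjusted p under 0.05 (edgeR) there were 0, 2 and 1 of the 10 in the same order. These were B2m and H2-T23 for 29 °C against 22 °C, and Tapbp for 6 °C against 22 °C. Of all 15006 genes tested, 2241 lay under that level for 29 °C against 22 °C. The number over all genes is not given here for the other comparisons, so these genes are named as a description only. DESeq2 and limma voom also called 0 of the 10 in each comparison. Groups overlapped for all 10 genes in each comparison, while 13.3%, 7.68% and 6.34% of all genes tested did not overlap. For H2-K1, H2-D1, H2-Q7, H2-Q10, B2m and H2-Q4, which separated the 4 libraries with H2-Ea-ps counts from the other 8, this was set in advance. Each temperature holds some of the 4 and some of the 8, so for these genes the count is no test of temperature. Only H2-T23, Tap1, Tap2 and Tapbp were free to separate by temperature, and they overlapped. The median log2 difference of the 10 genes was 0.04, 0.30 and 0.37, beside 0.00, -0.00 and -0.02 over all genes.

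The spread within a temperature was wide for the genes that separate the 4 libraries. H2-K1 stood at 773 ± 416 CPM at 6 °C, 516 ± 379 CPM at 22 °C and 728 ± 374 CPM at 29 °C (SD, n = 4). H2-Q7 stood at 24.3 ± 17.1, 16.1 ± 17.7 and 37.1 ± 23.4 CPM, H2-Q10 at 1561 ± 517, 1142 ± 481 and 1137 ± 436 CPM and H2-D1 at 461 ± 109, 424 ± 80.3 and 521 ± 132 CPM in the same order. Each SD includes the step described above, since 6 °C and 29 °C hold 1 library with H2-Ea-ps counts each and 22 °C holds 2. For 29 °C against 6 °C the log2 difference was -0.08 (SE 0.70) for H2-K1, 0.62 (SE 1.15) for H2-Q7, -0.46 (SE 0.38) for H2-Q10 and 0.18 (SE 0.23) for H2-D1.

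B2m, H2-T23 and Tapbp were the genes with an unadjusted p under 0.05 in a comparison. B2m stood at 1035 ± 349 CPM at 6 °C, 1490.4 ± 1003 CPM at 22 °C and 765 ± 134 CPM at 29 °C (SD, n = 4), and its log2 difference for 29 °C against 22 °C was -0.96 (SE 0.42, edgeR adjusted p = 0.318). H2-T23 stood at 143 ± 45.6, 105 ± 7.09 and 156 ± 49.4 CPM, with a difference of 0.57 (SE 0.25, edgeR adjusted p = 0.311) for 29 °C against 22 °C. Tapbp stood at 208 ± 38.0, 159 ± 12.0 and 188 ± 29.7 CPM, with a difference of 0.39 (SE 0.17, edgeR adjusted p = 0.388) for 6 °C against 22 °C. None of these 3 passed the threshold. Tap1 at 38.1 ± 16.5, 29.6 ± 5.26 and 36.6 ± 6.09 CPM, Tap2 at 38.8 ± 7.79, 37.8 ± 18.9 and 49.9 ± 9.30 CPM and H2-Q4 at 28.0 ± 8.61, 31.3 ± 15.7 and 32.2 ± 4.81 CPM had adjusted p-values (edgeR) of 0.531 or more in all 3 comparisons.

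**Figure D4:**
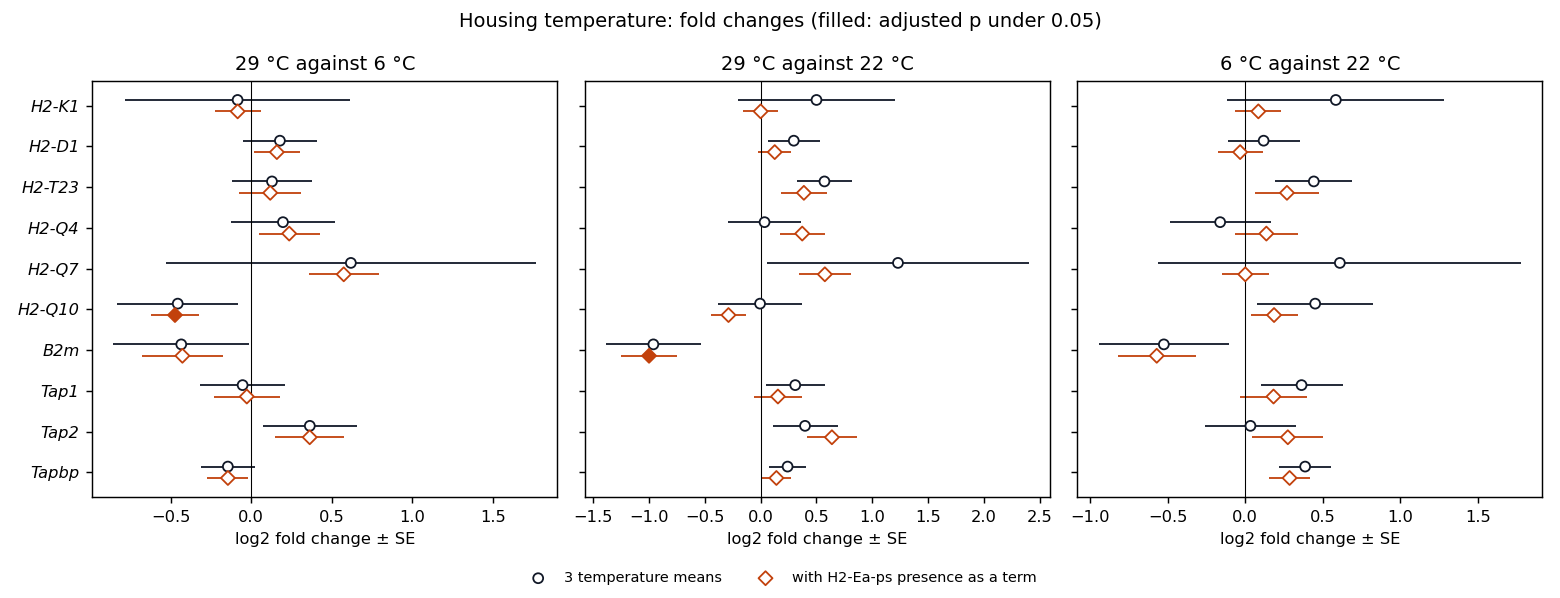
Fitted log2 differences of the 10 genes for 29 °C against 6 °C, 29 °C against 22 °C and 6 °C against 22 °C, with bars of 1 SE, from the fit of 3 temperatures (circles) and from the fit with a term for the 4 libraries with H2-Ea-ps counts (diamonds). Filled marks passed an adjusted p of 0.05. The bars of H2-Q7 and H2-K1 shorten with the term, from 1.15 to 0.22 and from 0.70 to 0.14 for 29 °C against 6 °C.

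With a term for the 4 libraries in the fit, standard errors of the 10 genes fell and 12.6%, 3.44% and 0.367% of all genes were called in the 3 comparisons. H2-Q10 was then lower at 29 °C than at 6 °C (-0.47, SE 0.15, edgeR adjusted p = 0.0477) and B2m was lower at 29 °C than at 22 °C (-0.999, SE 0.25, edgeR adjusted p = 0.0460). That is 1 of 10 genes beside 6.23% of all genes lower in the one comparison and 1.88% in the other, and no gene of the 10 was called for 6 °C against 22 °C. Without library 11, both calls were lost with that term. The term moved H2-K1 for 29 °C against 22 °C from 0.50 to 0.00 on the log2 scale. H2-Q7 was 0.57 higher (log2) at 29 °C than at 6 °C with this term, which did not pass (SE 0.22, edgeR adjusted p = 0.0945).

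Over the 8 libraries without H2-Ea-ps counts alone, 22 °C was left with libraries 5 and 6, and 17.1% of genes were called for 29 °C against 22 °C, 9.91% for 29 °C against 6 °C and 6.69% for 6 °C against 22 °C. For 29 °C against 22 °C, B2m fell (-1.49, edgeR adjusted p = 0.00172), while Tap2 (0.996, edgeR adjusted p = 0.00975), H2-T23 (0.75, edgeR adjusted p = 0.0273) and H2-Q4 (0.75, edgeR adjusted p = 0.0291) rose, beside 7.74% of all genes lower and 9.35% higher. For 6 °C against 22 °C, B2m fell (-1.06, edgeR adjusted p = 0.0174) beside 2.21% of all genes lower, and 0 of 10 genes were called for 29 °C against 6 °C. All of these calls rest on libraries 5 and 6, which stand apart in another way described next.

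B2m was highest in libraries 3, 5 and 6, at 1540.3, 2093 and 2588 CPM, against 567 to 969.7 CPM in the other 9. The same 3 libraries held the smallest share of counts on Gm26917, an annotated non-coding transcript, with 1.66%, 0.667% and 0.606% of all counts against 4.03% to 8.70% in the other 9. With libraries 3, 5 and 6 left out, an alternative added after the values were seen, 0 of the 10 genes were called in each comparison. B2m then differed by 0.26 (log2) for 29 °C against 22 °C and by 0.44 for 6 °C against 22 °C, each of the opposite sign. That setting leaves 22 °C with libraries 7 and 8 alone, both with H2-Ea-ps counts. B2m was lower in every library with such counts, so these differences hold that split as well as temperature. The part of Gm26917 in the level of B2m was not tested. Within the 8 libraries without H2-Ea-ps counts, B2m ran against H2-T23 (Pearson r = -0.881) and Tap2 (r = -0.892), while H2-Q4 ran with H2-T23 (r = 0.945) and Tap2 (r = 0.942), and H2-K1 with Tap1 (r = 0.939). These are descriptions over 8 libraries that share the same scaling.

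**Figure D5:**
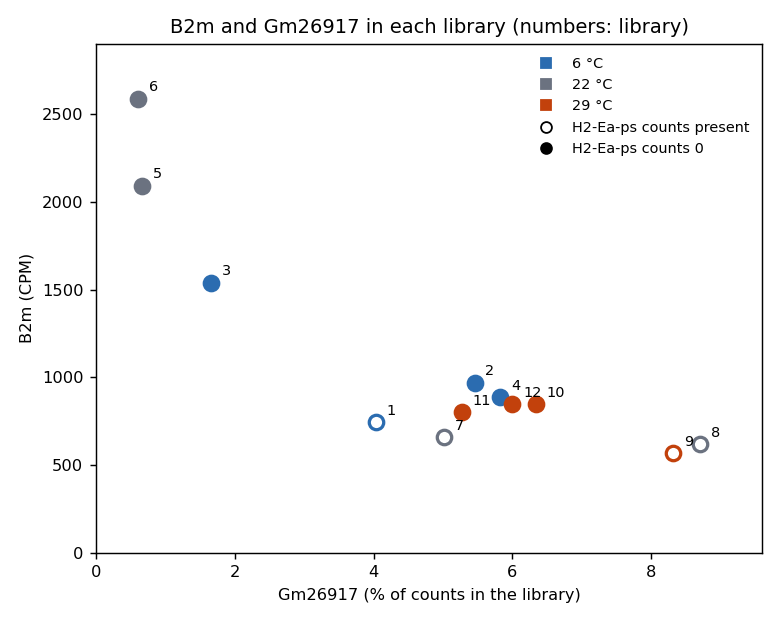
Level of B2m in CPM against the share of all counts on Gm26917 in percent, 1 numbered point per library, with color for housing temperature and open marks for the 4 libraries with H2-Ea-ps counts. Libraries 3, 5 and 6 lie apart, with B2m at 1540.3 to 2588 CPM and Gm26917 at 0.606% to 1.66%.

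The wider class I pathway was read from lists of 56 further genes. Of 24 other class I and class I-like heavy chains, 16 were tested and 0 were called in any of the 3 temperature comparisons. Fcgrt, the neonatal Fc receptor that recycles albumin and IgG, stood at 110.1 ± 19.01 CPM at 6 °C, 93.4 ± 32.7 CPM at 22 °C and 123 ± 8.06 CPM at 29 °C (SD, n = 4). With the term for the 4 libraries, Cd1d1, which presents lipids to NKT cells, was lower at 29 °C than at 6 °C (-0.51, edgeR adjusted p = 0.0134), as was H2-Q1 (-1.21, edgeR adjusted p = 0.00711). That is 2 of 16 genes, beside 12.6% of all genes called with the term in that comparison and 6.23% called lower. Between the 4 libraries and the 8, 5 of these 16 genes were higher in the 4 and 3 lower without overlap, beside 4.61% and 4.77% of all genes tested. Among them, chosen after their values were seen, H2-Q2 ran from 19.1 to 25.0 CPM in the 4 and from 0.0922 to 12.0 CPM in the 8. The 12.0 CPM are those of library 11 alone, which lay between the sets, and the highest of the other 7 was 0.952 CPM. H2-M2 ran from 2.31 to 2.59 CPM against 0 to 0.418 CPM. H2-T22, a ligand of some gamma-delta T cells, ran from 16.96 to 27.2 CPM against 31.0 to 43.6 CPM.

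Peptide supply showed 1 call among 12 genes tested for 29 °C against 6 °C, beside 2.53% of all genes tested. Psmb7, a catalytic subunit of the standard proteasome, was lower at 29 °C (42.8 ± 3.01 CPM) than at 6 °C (61.5 ± 5.77 CPM; SD, n = 4), by -0.52 on the log2 scale (edgeR adjusted p = 0.0459), and 0 of 12 were called in the other 2 comparisons. Between the 4 libraries and the 8, 1 of the 12 was higher in the 4 without overlap and 1 lower, beside 4.61% and 4.77% of all genes. Thop1, which degrades peptides in the cytosol, was higher (9.92 to 11.3 against 5.35 to 9.69 CPM). Psme1, a subunit of the PA28 proteasome activator, was lower (29.3 to 37.2 against 51.9 to 80.5 CPM). The immunoproteasome subunits Psmb8, Psmb9 and Psmb10 overlapped. Of 7 loading chaperones, 0 were called and 0 failed to overlap. Hspa5, the general chaperone BiP, stood at 801 ± 270, 741 ± 249 and 772 ± 255 CPM and Calr, calreticulin of the loading complex, at 767 ± 153, 870.4 ± 154 and 718 ± 67.6 CPM at 6, 22 and 29 °C.

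Of 13 genes of class I transcription control, 0 were called by temperature, and Irf1, an interferon regulatory factor, was called lower at 29 °C than at 6 °C with the term for the 4 libraries (-0.43, edgeR adjusted p = 0.0382). That is 1 of 13 genes, beside 12.6% of all genes called with the term in that comparison and 6.23% called lower. Of the 13, 3 were lower in the 4 libraries without overlap and 0 higher, beside 4.77% and 4.61% of all genes. Nlrc5, the class I transactivator, was lower without overlap in the 4 libraries (49.4 to 63.0 CPM) than in the 8 (73.8 to 121 CPM), as were Irf9 (32.8 to 37.6 against 43.0 to 60.2 CPM) and Rfxank (5.90 to 11.9 against 16.1 to 36.6 CPM). Of 23 interferon-stimulated genes, 0 were called by temperature without the term. With it, Irf7, a transcription factor of the interferon response, was higher at 29 °C than at 6 °C (0.56, edgeR adjusted p = 0.0392) and than at 22 °C (0.67, edgeR adjusted p = 0.0486). Oas1a, an RNA sensor enzyme, was higher at 29 °C than at 6 °C (1.08, edgeR adjusted p = 0.0165), and Cxcl9, a T cell chemokine, was lower at 29 °C than at 22 °C (-1.28, edgeR adjusted p = 0.0464). With the term, 2 of the 23 were thus called for 29 °C against 6 °C, beside 12.6% of all genes. For 29 °C against 22 °C, 1 was called higher and 1 lower, beside 3.44% of all genes called. Between the 4 libraries and the 8, 9 of the 23 were lower in the 4 without overlap and 0 were higher, beside 4.77% and 4.61% of all genes tested.

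The 5 genes outside all lists whose pattern over 12 libraries was most like the mean of the 10 genes were Slc6a13 (Pearson r = 0.974), Gaa (0.948), Ifit3b (0.939), Faah (0.938) and Cog7 (0.938). Slc6a13, a GABA and taurine transporter of hepatocytes, ran from 106 to 134 CPM in the 4 libraries and from 156 to 239 CPM in the 8, without overlap. Within the 8 libraries alone its correlation was 0.945, against 0.817 to 0.877 for the other 4 genes. These genes were picked for the likeness from all genes tested, so the values describe it only, and the libraries share depth and scaling.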

How the data were processed

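Per the file headers and values, the authors deposited unnormalized read counts for 55421 genes with symbols and Ensembl identifiers. Tools in the submitters' processing notes are bcl2fastq, STAR 2.6.1a and DESeq2 1.44.0, on GRCm38, without their roles. Which program counted reads, whether it used strand and the read length were not given in the sources used here. Positions came from GENCODE vM21 by stable identifier (55154 matched, 54587 in the same version, 9 of the 10 genes among them).

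Counts were tested with edgeR 4.0.16 in R 4.3.3, with TMM factors, filterByExpr, a robust quasi-likelihood fit and two-sided tests, adjusted by Benjamini-Hochberg over 15006 genes (threshold 0.05). All 12 libraries entered a fit of 3 temperature means, leaving 9 residual degrees of freedom; the common biological coefficient of variation was 0.321. Standard errors were derived from the fold change and its F statistic, and are imprecise where the fold change is near 0. The term for the 4 libraries is a covariate for at least 1 CPM of H2-Ea-ps. The tests were checked on simulated data. No pair of replicates (18 pairs) matched within sampling noise, with chi-square divided by its degrees of freedom from 12.7 to 136.

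The genes and lists were chosen with earlier results of these data known. Besides the 10 genes and H2-Ea-ps, the text names up to 3 called genes per list, otherwise up to 2 with the highest mean CPM, and the 5 most alike genes by log2(CPM + 1). Other genes of the lists were named after their values were seen, to say which did or did not overlap. Alternatives were other scaling factors, no filter and a stricter filter, DESeq2 1.42.0, limma 3.58.1 voom with quality weights, fits of only the libraries of the pair compared, the covariate, the libraries without H2-Ea-ps counts, and leaving out each library. Leaving out libraries 3, 5 and 6 was added after seeing the data. Promoters came from RefSeq (9 of 10 genes listed).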

Additional observations from a re-analysis of the deposited data

Results flagged for a closer look

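Of 30 groups of 4 libraries (10 genes at 3 temperatures), 3 held a library far from the other 3, with a gap to the nearest library, as a share of the range of the group, above Dixon's 95% critical value. Chance gives about 1 in 20 groups. All 3 were library 9 at 29 °C, 1 of the 4 libraries with H2-Ea-ps counts. H2-K1 stood there at 171 CPM, against 868 to 977 CPM in the others (gap 0.865 of the range). H2-Q7 stood at 2.08 CPM, against 47.2 to 51.0 CPM (0.921), and Tapbp at 144 CPM, against 198 to 205 CPM (0.876).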

How the results depend on the processing

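Without any term, 379 genes were called for 29 °C against 6 °C, 0 for 29 °C against 22 °C (2241 at an unadjusted p under 0.05) and 5 for 6 °C against 22 °C, by edgeR. In that order, DESeq2 called 1178, 310 and 165, the fit with the term for the 4 libraries 1884, 516 and 55, that term without library 11 1305, 100 and 36, and the libraries without H2-Ea-ps counts 1504, 2594 and 1015. For 29 °C against 6 °C, limma voom called 1110 and leaving out libraries 3, 5 and 6 134. For 29 °C against 22 °C, limma voom called 43 and no low-count filter 15. For 6 °C against 22 °C, fitting only the 8 libraries compared called 3 and leaving out libraries 3, 5 and 6 called 0. Leaving out each library gave 41 to 439, 0 to 78 and 3 to 7, with 0 of the 10 genes called. Of the 10 genes, the term called 1 for 29 °C against 6 °C and 1 for 29 °C against 22 °C, and the libraries without H2-Ea-ps counts called 4 for 29 °C against 22 °C and 1 for 6 °C against 22 °C. The cause was not tested. Of 690 values of single genes under alternatives, 646 kept direction and side of the threshold, 7 passed it and 37 changed sign, none of which was called. Without libraries 3, 5 and 6, 22 °C held libraries 7 and 8 alone, both with H2-Ea-ps counts. For 29 °C against 22 °C, leaving out libraries 3, 5 and 6 gave 0.26 for B2m, 0.63 for H2-Q10, -0.48 for H2-Q4 and -0.0617 for Tap2, while H2-Q10 was 0.11 by voom and 0.0029 with no filter. For 6 °C against 22 °C, leaving out these libraries gave 0.44 for B2m and -0.29 for Tap2. There, H2-Q4 was 0.44 over the libraries without H2-Ea-ps counts, 0.14 with the term and 0.13 with the term and no library 11, H2-D1 was -0.0331 and -0.0339 in the latter pair and H2-Q7 -0.0007 in the last. Tap1 for 29 °C against 6 °C was 0.0556 by voom. Leaving out each library gave, for 29 °C against 6 °C, -0.41 to 0.24 for H2-K1, -0.046 to 0.33 for H2-T23 and -0.25 to 0.23 for Tap1. It gave -0.21 to 0.23 for H2-Q10 and -0.19 to 0.27 for H2-Q4 for 29 °C against 22 °C. For 6 °C against 22 °C it gave -0.0174 to 0.25 for H2-D1, -0.39 to 0.0753 for H2-Q4 and -0.17 to 0.40 for Tap2. No paired analysis was possible because each library number occurs once.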

Other observations

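Of 10 class II genes listed, 9 were tested and 0 were called by temperature. Besides H2-Ea-ps, 3 were lower in the 4 libraries than in the 8 without overlap, beside 4.77% of all genes tested: Cd74, the invariant chain (49.4 to 64.2 against 71.4 to 214 CPM), H2-Ab1 (14.7 to 18.0 against 23.9 to 62.4 CPM) and H2-Eb1 (10.3 to 15.0 against 15.3 to 45.6 CPM). The last pair are beta chains of the class II molecules. H2-Aa, an alpha chain, overlapped (12.8 to 21.4 against 18.7 to 55.1 CPM), as did Ciita, the class II transactivator (5.55 to 7.01 against 5.79 to 13.1 CPM).

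H2-T3, a non-classical class I chain of the intestine, had counts in library 11 alone, at 4.76 CPM, and did not pass the filter. Library 11 also held 611 CPM of summed intestinal markers.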
